A study of Mus musculus with 24 samples.

Results

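Loss of Ern1, the gene for the endoplasmic reticulum (ER) stress sensor IRE1, was compared with its presence in LSK cells that carry the Flt3-ITD allele. The comparison set the 3 libraries labelled IRE1_KO_ITD against the 3 labelled ITD, 6 of the 24 libraries of the series, and tested the 11294 of 23991 listed genes with at least 1 FPKM (fragments per kilobase of transcript, scaled to the library total) in 3 or more of these 6 libraries. LSK cells are the Lin-Sca1+cKit+ fraction of mouse bone marrow, sorted here by flow cytometry from C57BL/6 animals, which holds stem cells and multipotent progenitors. The ITD group is labelled with the Flt3-ITD allele alone, an activating internal tandem duplication in the receptor Flt3. The IRE1_KO_ITD group carries Flt3-ITD together with 2 floxed copies of Ern1 and Vav-Cre, a Cre recombinase driven in blood cells, so that deletion is not restricted to LSK cells, and the labels do not say whether the ITD animals carried floxed Ern1 or Cre. The same Ern1 labels were also compared in LSK cells without Flt3-ITD (IRE1_KO, which is Ern1 floxed with Vav-Cre, against WT) and in granulocyte-monocyte progenitors (GMP) with Flt3-ITD, with 3 libraries in each group. Animal ages were not stated. The labels do not say that the libraries came from separate animals, so the p-values measure the spread between these samples, which may in part be technical.

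IRE1 is a transmembrane kinase and endoribonuclease of the ER. When unfolded proteins build up there it cuts the mRNA of Xbp1, and the re-joined transcript encodes a factor, XBP1s, that activates genes for protein translocation, folding, glycosylation, degradation and vesicle transport. IRE1 can also cut other ER-bound mRNAs. Signalling from Flt3-ITD is known to activate STAT5, whose targets include the Socs and Pim genes, and Flt3-ITD in mice is known for an expanded myeloid output.

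In the 6 libraries the summed FPKM lay between 566084 and 571899 in ITD and between 510361 and 514280 in IRE1_KO_ITD, and 11119 to 11230 genes reached 1 FPKM. Read totals are not given in the files; steps between low FPKM values placed the depth of the other 5 libraries at 0.997 to 1.25 times that of ITD replicate 1. Xist and Y-linked genes read all 3 ITD libraries as female, IRE1_KO_ITD replicates 1 and 2 as male and replicate 3 as female. ITD replicates 2 and 3 had a Pearson correlation over genes of 0.975, while ITD replicate 1 reached 0.952 and 0.954 with them. Both ITD replicates 2 and 3 lay above the other 4 libraries for 1193 of 11294 genes (10.6%). Every call below comes from limma on log2(FPKM + 1), fitted over the 12 LSK libraries, with Benjamini-Hochberg adjusted p under 0.05, and fold changes are IRE1_KO_ITD minus ITD on that scale with standard errors. The scale understates the change of genes with low FPKM. In bulk samples fewer cells of a type and less RNA per cell cannot be told apart.

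In all, 2447 of 11294 genes (21.7%) passed the test in LSK cells with Flt3-ITD. Of these, 1627 rose (14.4%) and 820 fell (7.26%) with the IRE1_KO_ITD label, and the median over all tested genes was 0.06. The 12 largest falls by the naming rule, which leaves out short RNA loci, included the MHC class II genes H2-Eb1, Cd74, H2-Aa and H2-Ab1, the myeloid genes Plbd1, Aif1 and Ly86, and the interferon-induced Ifi27l2a. The largest rises included Podxl, Akr1c12, Gldc, Fam20a and Epcam. A change of at least 1 on the log2 scale was held by 283 of the genes that rose and 143 of those that fell. The split between directions moved with the scaling: 1088 rose and 842 fell after quantile normalization, 1393 and 1140 with a median-ratio size factor, and 1029 and 928 after a correction for GC content and transcript length. With sex as a covariate 1380 rose and 560 fell, and against the female IRE1_KO_ITD library alone 648 rose and 78 fell. That last setting leaves 1 library in the IRE1_KO_ITD group, which is assumed to vary like the other groups, so a call lost there does not show a smaller change, nor an effect of sex. Without IRE1_KO_ITD replicate 3 the counts were 946 and 391. The count that fell was also more than 1.5 times smaller without IRE1_KO_ITD replicate 1 (461), ITD replicate 2 (438) or ITD replicate 3 (460), and the count that rose was 1084 without ITD replicate 2.

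**Figure D1:**
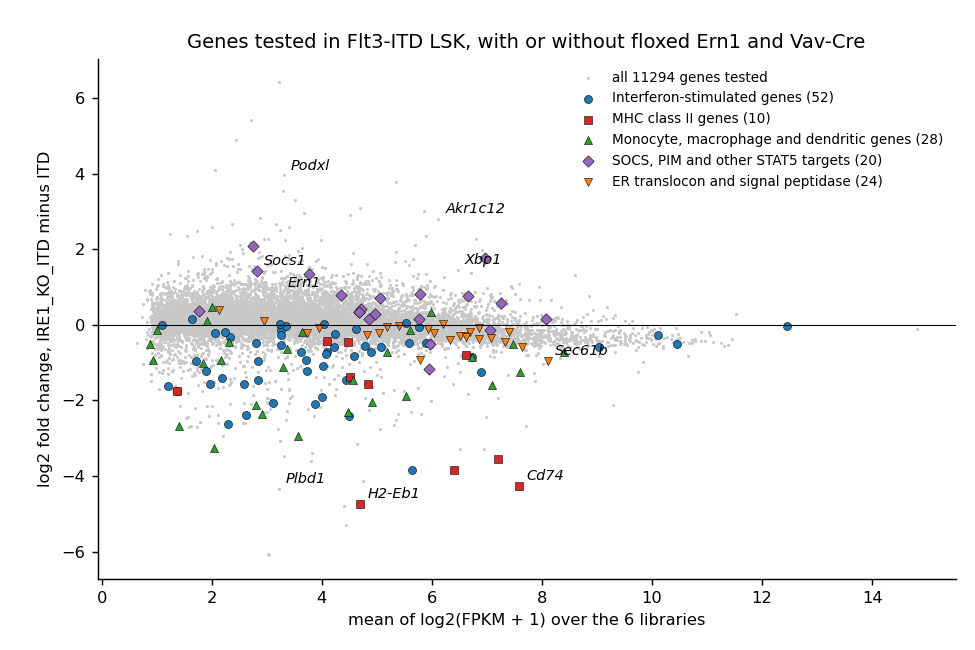
Log2 fold change (IRE1_KO_ITD minus ITD, vertical axis) against the mean of log2(FPKM + 1) over the 6 LSK libraries (horizontal axis) for the 11294 genes tested, with the tested members of 5 gene lists in colour. The MHC class II, interferon and monocyte lists lie mostly below 0 (medians of -1.65, -0.71 and -0.93), while Podxl stands at 3.96.

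Ern1 itself was read first (GRCm38, chr11:106394650-106487852, minus strand). Its level in ITD replicates 1, 2 and 3 was 3.73, 7.54 and 7.56 FPKM, against 10.97, 11.54 and 12.93 FPKM in IRE1_KO_ITD. All 3 libraries labelled as knockout lay above all 3 controls, and the gene rose by 0.87 ± 0.21 (limma adjusted p = 0.0141). A gene-level FPKM sums reads over all exons, floxed or not, and does not check whether the floxed part was removed; the libraries labelled IRE1_KO_ITD therefore carry that label without a check from these files. The call was lost without IRE1_KO_ITD replicate 3 (limma adjusted p = 0.0555), against the female library alone (0.107) and after the GC and length correction (0.0632). Ern1 was also higher with the Ern1 labels in LSK cells without Flt3-ITD, at 0.69 (limma adjusted p = 0.0322), and in GMP with Flt3-ITD, from 13.9 to 29.4 FPKM (limma adjusted p = 0.00576).

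Xbp1 (chr11:5520659-5525893), whose transcript is the substrate of IRE1, rose as a gene. It stood at 64.8, 43.9 and 50.1 FPKM in ITD and at 138.9, 132.5 and 169.7 FPKM in IRE1_KO_ITD. The groups did not overlap and the difference of 1.47 ± 0.19 (limma adjusted p = 0.00127) passed the test under every alternative run. The files do not separate the spliced from the unspliced form. In LSK cells without Flt3-ITD the same labels gave a rise of 0.83 (limma adjusted p = 0.00773), and in GMP with Flt3-ITD 0.65 (limma adjusted p = 0.0636). The difference between the effects with and without Flt3-ITD was 0.64 (limma adjusted p = 0.165).

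The textbook targets and sensors of the unfolded protein response gave few calls. Hspa5, the ER chaperone BiP, held 274.6, 438.4 and 555.7 FPKM in ITD and 210.8, 376.7 and 340.3 FPKM in IRE1_KO_ITD. The groups overlapped, with a difference of -0.43 (limma adjusted p = 0.342). Dnajb9, a BiP co-chaperone and a known XBP1s target, held 12.4, 18.6 and 21.2 FPKM in ITD and 8.27, 16.3 and 9.94 FPKM in IRE1_KO_ITD, which overlapped as well (-0.58, limma adjusted p = 0.232). A fit with the replicate number as a block called both, at limma adjusted p = 0.0301 and 0.0372, although the labels do not say whether equal numbers pair these samples. Edem1, a degradation factor, was higher in all 3 IRE1_KO_ITD libraries by 0.51 without passing (limma adjusted p = 0.0578), and it passed with sex as a covariate (0.0103) and against the female library alone (0.0166). Sdf2l1, a BiP cofactor, was lower in all 3 by 0.58 on the log2 scale without passing (limma adjusted p = 0.122), and passed without ITD replicate 1 (0.042). Sec61a1, the channel subunit of the translocon, was lower in all 3 by 0.31 on the log2 scale (limma adjusted p = 0.0755), and passed with the size factor (0.0247) and with the GC and length correction (0.00746). Of the targets of the other stress sensors, Atf4 differed by -0.34 (limma adjusted p = 0.256) and Ddit3 by -0.03 (limma adjusted p = 0.944). Of 11 tested sensors and transcription factors of this response, 2 rose (Ern1 and Xbp1) and 0 fell in limma (1 at an unadjusted p under 0.05), with a median of -0.06. Without IRE1_KO_ITD replicate 3 only Xbp1 of these was called.

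Of 24 tested genes of the ER translocon and signal peptidase 7 fell (29.2%, beside 7.26% of all tested genes). Sec61b, a subunit of that channel (chr4:47474658-47483242), stood at 382.2, 384.2 and 381.1 FPKM in ITD and at 191.8, 202.3 and 198.4 FPKM in IRE1_KO_ITD. The replicates within each group lay close together, and the gene fell by 0.95 on the log2 scale (± 0.10, limma adjusted p = 0.000758) and under every alternative. Its partner Sec61g held 77.5, 72.1 and 76.7 FPKM in ITD against 36.4 to 43.2 FPKM, a fall of 0.93 on the log2 scale (± 0.12, limma adjusted p = 0.00135), also kept under every alternative. In the list 0 genes rose in limma, against 1 that was higher and 13 that were lower at an unadjusted p under 0.05, and 17 were lower in all 3 IRE1_KO_ITD libraries than in any ITD library. The list's median was -0.22 beside 0.06 for all tested genes. Groups that do not overlap with the IRE1_KO_ITD level lower made up 16.4% of all tested genes (41.2% counting both directions). The list's summed level was 2298 to 2475 FPKM in ITD and 1754 to 1859 FPKM in IRE1_KO_ITD. The falls numbered 4 without IRE1_KO_ITD replicate 1 or 3 or without ITD replicate 1, 5 or 6 without another library, and 3 against the female library alone.

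Other steps of the secretory pathway held genes that moved in both directions. Among 39 chaperones and disulfide isomerases 5 rose (12.8%) and 5 fell (12.8%), and among 30 N-glycosylation genes 3 rose and 5 fell (16.7%). Among 42 vesicle trafficking genes 3 rose (7.14%) and 4 fell (9.52%), and among 31 degradation genes 5 rose (16.1%) and 2 fell (6.45%). Of all tested genes 14.4% rose and 7.26% fell. The rises were thus near or below the share of all tested genes, and the trafficking and degradation falls were near it. The chaperone and N-glycosylation falls lay above it. The medians of these 4 lists were -0.17, -0.12, -0.04 and 0.08. These counts were small and most fell when a library was left out: without IRE1_KO_ITD replicate 3 they were 2 and 3, 2 and 2, 0 and 2, and 4 and 1 in the same order. Fkbp11, an ER peptidyl-prolyl isomerase, held 17.2, 13.5 and 17.9 FPKM in ITD and 2.31, 5.15 and 6.30 FPKM in IRE1_KO_ITD. It was the member with the largest fall of the 39 chaperones that passed, by 1.69 on the log2 scale (± 0.39, limma adjusted p = 0.0116). Manf, a secreted stress factor, fell by 0.66 on the log2 scale (limma adjusted p = 0.0102), the disulfide isomerase P4hb by 0.48 (0.00211), the oligosaccharyltransferase subunit Ostc by 0.57 (0.00236), the degradation adaptor Vimp by 0.74 (0.00649) and the cargo receptor Tmed3 by 0.65 (0.00523). Against the female library alone these 6 genes did not pass, with differences of -1.23, -0.48, -0.45, -0.56, -0.61 and -0.62 and limma adjusted p of 0.201, 0.21, 0.0581, 0.0508, 0.139 and 0.0971 in the order named.

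The genes that rose in these lists included the degradation factor Nploc4, from 8.64, 8.87 and 10.44 FPKM in ITD to 19.1, 21.0 and 25.4 FPKM in IRE1_KO_ITD. It rose by 1.14 ± 0.16 (limma adjusted p = 0.00138) under every alternative, as did Herpud2 (1.08, limma adjusted p = 0.00262) and the oligosaccharyltransferase subunit Stt3b (0.79, limma adjusted p = 0.0102). Dnajc3, a BiP co-chaperone, rose by 0.53 (limma adjusted p = 0.0104), a call that missed against the female library alone (0.0642) and after the GC and length correction (0.0801). Txndc5, a disulfide isomerase, rose by 0.80 (limma adjusted p = 0.0123) and missed without IRE1_KO_ITD replicate 3 (0.0543). Over the 165 tested members of the 5 secretory lists, 16 rose (9.7%) and 23 fell (13.9%), beside 14.4% and 7.26% of all tested genes. The median transcript length was 4032 bases for those that rose and 2568 bases for those that fell, beside 3050 bases for all 165.

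**Figure D2:**
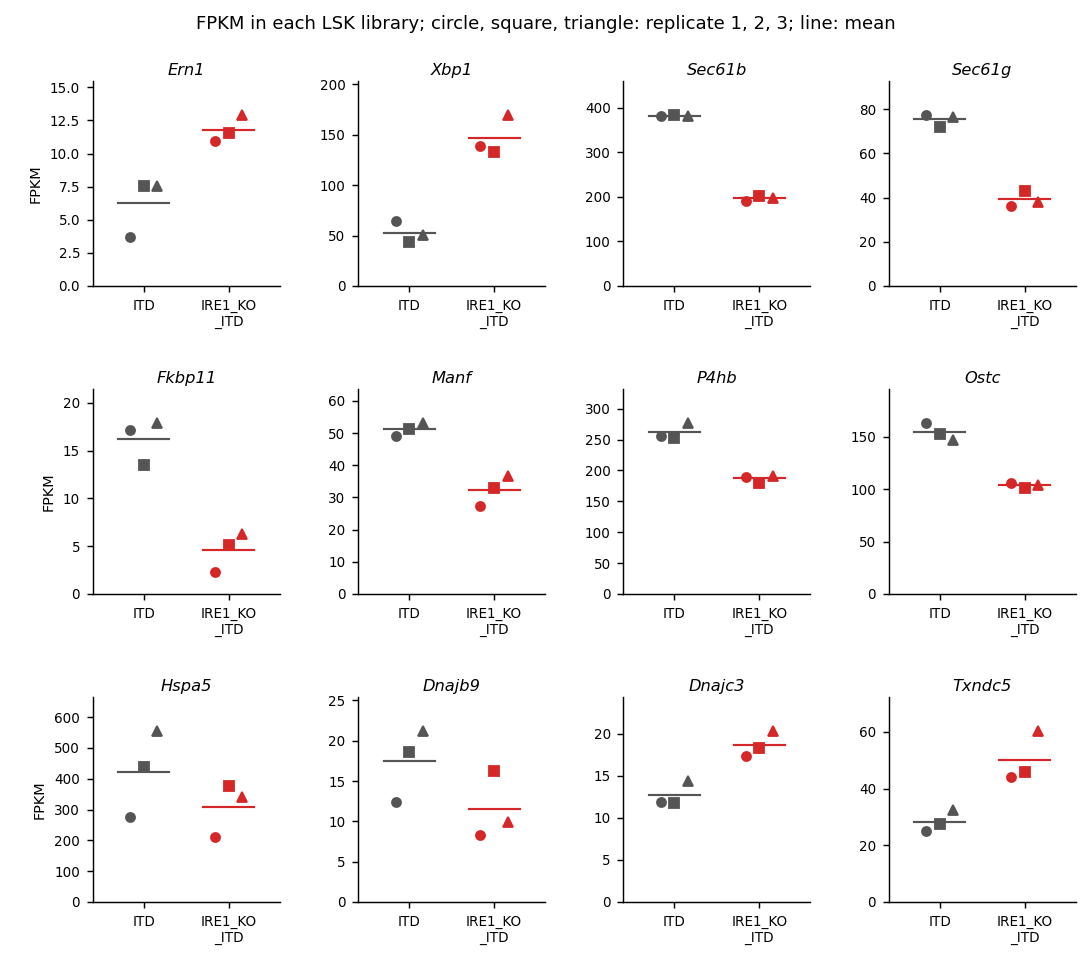
FPKM (vertical axis, linear from 0) of Ern1, Xbp1 and 10 secretory pathway genes in each ITD (grey) and IRE1_KO_ITD (red) LSK library, with circle, square and triangle for replicates 1, 2 and 3 and a line at the mean. Sec61b lies at 381.1 to 384.2 FPKM in ITD and at 191.8 to 202.3 FPKM in IRE1_KO_ITD, while Hspa5 and Dnajb9 overlap.

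The same secretory genes were read in GMP with Flt3-ITD, a comparison that shares no library with the one in LSK. Xist and Y-linked genes read all 3 ITD GMP libraries as female. They read IRE1_KO_ITD GMP replicates 1 and 3 as male and replicate 2 as female, so sex was unbalanced in the same direction as in LSK. The labels do not say whether LSK and GMP libraries came from the same animals. In GMP 3 of the 165 rose and 42 fell, and 15 fell in both cell types. Over all tested genes, 293 rose (2.59%) and 148 fell (1.31%) in GMP, 3.90% together. Sec61b fell in GMP by 1.09 on the log2 scale (limma adjusted p = 6.04e-06), and its effect did not differ detectably between the cell types (limma adjusted p = 0.61). Fkbp11 fell by 1.75 (limma adjusted p = 0.0157) and P4hb by 1.05 (limma adjusted p = 1.04e-06) on the same scale. For P4hb the fall was larger in GMP than in LSK (limma adjusted p of the difference = 0.02), a call lost without GMP IRE1_KO_ITD replicate 1 (0.061) or 2 (0.0528) or LSK IRE1_KO_ITD replicate 3 (0.057).

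The effect in LSK lay above that in GMP for 16 of the 165 secretory genes and below it for 1, Sar1b, a coat GTPase named after its values were seen. Over all tested genes the LSK effect lay above for 483 (4.28%) and below for 367 (3.25%), 7.53% together. These 2 counts ranged from 48 and 22 without GMP IRE1_KO_ITD replicate 1 to 975 and 676 without GMP IRE1_KO_ITD replicate 3, with 105 and 47 without its replicate 2 and 79 and 40 without LSK IRE1_KO_ITD replicate 3. Dnajc3, which rose in LSK, fell in GMP from 34.6 to 22.1 FPKM, by 0.62 on the log2 scale (limma adjusted p = 0.00458; difference between cell types, 0.00175). Sec24d, a coat protein of vesicles leaving the ER, showed the widest gap. It held 7.27, 4.49 and 4.92 FPKM in ITD LSK and 2.55, 3.20 and 3.17 FPKM in IRE1_KO_ITD LSK, a fall of 0.70 on the log2 scale (limma adjusted p = 0.0209), whereas in GMP it went from 14.6 to 0.661 FPKM, a fall of 3.17 (limma adjusted p = 1.03e-06). The difference between the cell types passed (limma adjusted p = 0.00313). The LSK call of Sec24d was lost without IRE1_KO_ITD replicate 1 (0.0734) or 3 (0.0516), without ITD replicate 1 (0.058), with sex as a covariate (0.0762), against the female library alone (0.232) and with no filter on low values (0.0555).

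A promoter search of these lists read the 250 bases before each RefSeq start (GRCm38.p6), on both strands. The core of the XBP1-type UPRE, TGACGTGG, was in 1 of 23 promoters of secretory members that fell (4.35%) and in 5 of 125 promoters of the other tested members (4.0%), against 0.751% of the promoters of all tested genes. The longer ER stress response element (ERSE) was in 0 of 23 and in 10 of 125 (8.0%), against 0.16%. The letters are a description of these windows and not of binding. The 23 promoters belong to 19 secretory genes that fell, and the other genes that fell had no promoter that could be read. Sec24d is shown because it is the 1 gene of these 19 whose window holds the UPRE core. The core is in capitals (GRCm38.p6, chr3:123267450-123267495, plus strand).
Sec24d: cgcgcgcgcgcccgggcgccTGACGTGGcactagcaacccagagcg

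The 10 tested MHC class II genes gave 0 rises and 8 falls in limma (0 and 9 at an unadjusted p under 0.05), with a median of -1.65 beside 0.06 for all tested genes. H2-Eb1, a beta chain of the presenting molecule (chr17:34305867-34316674), held 36.3, 213.2 and 298.2 FPKM in ITD and 3.81, 3.02 and 5.62 FPKM in IRE1_KO_ITD. ITD replicates 2 and 3 were far above ITD replicate 1, which in turn lay above all 3 IRE1_KO_ITD libraries. The gene fell by 4.73 on the log2 scale (± 0.61, limma adjusted p = 0.00127). Cd74, the invariant chain that escorts class II molecules through the ER, showed the same order, with 249.2, 1341 and 1769 FPKM against 40.7, 31.9 and 61.6 FPKM, and fell by 4.25 (limma adjusted p = 0.0015). H2-Aa and H2-Ab1 fell by 3.84 and 3.54 on the same scale (limma adjusted p = 0.00273 and 0.00277). Ciita, the class II transactivator, went from 1.26, 5.16 and 6.53 FPKM to 0.463, 0.447 and 0.330 FPKM, a fall of 1.74 (limma adjusted p = 0.00586). H2-Eb1 and Cd74 kept the call under every alternative, while H2-Aa, H2-Ab1 and Ciita missed it against the female library alone (limma adjusted p = 0.072, 0.0667 and 0.0794). The number of list members that fell was 7 to 10 when single libraries were left out.

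Interferon-stimulated genes fell in the same libraries. Of 52 tested, 0 rose and 31 fell in limma (0 and 36 at an unadjusted p under 0.05), 35 were lower in every IRE1_KO_ITD library than in any ITD library, and the median was -0.71. Falls made up 59.6% of this list and 7.26% of all tested genes, and 16.4% of all tested genes were lower without overlap. Zbp1, a sensor of nucleic acids in the Z form, held 8.69, 20.7 and 12.2 FPKM in ITD and 1.67, 1.76 and 1.71 FPKM in IRE1_KO_ITD. Isg15, a ubiquitin-like modifier (chr4:156199424-156200818), held 18.6, 47.6 and 30.3 FPKM against 6.39, 8.64 and 6.72 FPKM. Neither gene's groups overlapped, and they fell by 2.38 ± 0.26 and 1.92 ± 0.26 on the log2 scale (limma adjusted p = 0.000758 and 0.00135). Usp18, which removes Isg15 from its targets, fell by 2.07, Ifi44 by 2.62, Rtp4 by 2.10 and Xaf1, an apoptosis regulator, by 1.46, all with limma adjusted p between 0.00121 and 0.00127 and kept under every alternative. Irf7, the interferon regulatory factor that amplifies type I interferon production, was named after its values were seen; it held 25.1, 86.9 and 61.2 FPKM against 8.13, 7.59 and 10.8 FPKM (fall of 2.42, limma adjusted p = 0.00155). The list gave 22 to 35 falls when single libraries were left out, 26 with sex as a covariate and 9 against the female library alone.

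The promoters of these 2 lists were read for the element each is known by. The interferon-stimulated response element was searched on both strands of the same 250 bases. It was in 10 of 27 promoters of interferon-list members that fell (37.0%) and in 7 of 19 of the other tested members (36.8%). Of the promoters of all tested genes 2.78% held it. The 27 promoters belong to 21 of the 31 interferon genes that fell, and the others had no promoter that could be read. The Y box of class II promoters, CTGATTGG, was in 2 of 6 promoters of class II members that fell and in 1 of 2 of the other tested members. Of the promoters of all tested genes 5.6% held it. The 6 promoters belong to 5 of the 8 class II genes that fell. The examples below were chosen after their values were seen, because each fell and carries the element, written in capitals; overlapping matches form 1 run, and where the match is on the other strand the capitals show its reverse complement. They lie at chr4:156200855-156200916 (minus strand), chr19:34583353-34583436 (plus), chr5:120907526-120907565 (minus), chr17:34305785-34305832 (plus) and chr17:34287847-34287894 (minus) of GRCm38.p6, in the order shown. Ifit3, an antiviral RNA-binding protein, fell by 1.62 (limma adjusted p = 0.00277) and Oas1a, an oligoadenylate synthetase, by 1.46 (limma adjusted p = 0.00319) on the log2 scale, and neither passed against the female library alone (0.071 and 0.0867).
Isg15: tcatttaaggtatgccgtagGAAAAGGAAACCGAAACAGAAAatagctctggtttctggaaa
Ifit3: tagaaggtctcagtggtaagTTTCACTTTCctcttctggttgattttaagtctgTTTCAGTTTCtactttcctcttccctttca
Oas1a: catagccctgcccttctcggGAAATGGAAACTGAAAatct
H2-Eb1: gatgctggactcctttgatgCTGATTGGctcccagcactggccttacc
H2-Aa: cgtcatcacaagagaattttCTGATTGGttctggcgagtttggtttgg

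Part of the genes of mature myeloid cells fell. Of 28 tested monocyte, macrophage and dendritic genes 14 fell and 1 rose (Flt3), with a median of -0.93. Of all tested genes 7.26% fell. Of 27 primary granule and GMP genes 4 fell (14.8%) and 0 rose (11 and 0 at an unadjusted p under 0.05), with a median of -0.43. Those 4 were Ly86, Csf1r, Plac8 and Cst7, and Ly86 and Csf1r are also counted in the monocyte list. The primary granule genes Mpo, Elane, Prtn3 and Ctsg were not called. Ctss, a lysosomal protease that trims the invariant chain, held 37.5, 75.8 and 76.8 FPKM in ITD and 10.4, 14.3 and 17.8 FPKM in IRE1_KO_ITD, and fell by 2.04 on the log2 scale (± 0.26, limma adjusted p = 0.00127) under every alternative. Plbd1, a lysosomal phospholipase-like protein, held 13.1, 61.1 and 82.8 FPKM against 0.630, 0.964 and 1.79 FPKM and fell by 4.33 (limma adjusted p = 0.00121), also under every alternative. Csf1r, the receptor for the monocyte growth factor, fell by 2.12 (limma adjusted p = 0.00813) and Aif1 by 3.26 (limma adjusted p = 0.00221), and both missed against the female library alone (0.186 and 0.0573). Of 20 late neutrophil granule genes 11 fell (55.0%) and 0 rose in limma (13 and 2 at an unadjusted p under 0.05), with a median of -1.15. S100a8, a calcium-binding protein of neutrophils, held 232.6, 1191 and 531.9 FPKM against 41.3, 180.6 and 73.9 FPKM. It fell by 2.67 (limma adjusted p = 0.0151) without overlap, and missed without IRE1_KO_ITD replicate 1 (0.0584) or 3 (0.0521), without ITD replicate 2 (0.0567), after quantile normalization (0.0579) and against the female library alone (0.0845). The falls of this list numbered 5 and 6 without IRE1_KO_ITD replicates 1 and 3, 4 and 7 without ITD replicates 2 and 3, and 0 against the female library, where the median was -1.18. Padi4 and Pglyrp1 of this list, named after their values were seen, were higher in all 3 IRE1_KO_ITD libraries, at 40.7 to 55.0 FPKM against 29.3 to 34.3 FPKM and at 114.2 to 117.7 FPKM against 49.7 to 113.8 FPKM.

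Markers of other blood and marrow cells moved in the same libraries. ITD replicates 2 and 3 were both above the other 4 libraries for 10 of 11 MHC class II genes (90.9%), 40 of 55 interferon genes (72.7%), 29 of 46 monocyte and dendritic genes (63%) and 18 of 25 lymphoid priming genes (72%). The same was true of 15 of 26 B cell genes (57.7%), 15 of 23 T and NK cell genes (65.2%) and 5 of 18 endothelial and stromal genes (27.8%), most of which were too low to be tested, beside the 10.6% of all tested genes. The B cell gene Cd79a held 0.278, 3.01 and 6.17 FPKM in ITD and 0.188, 0.248 and 0.173 FPKM in IRE1_KO_ITD, Igll1 0.365, 4.79 and 17.2 FPKM against 0.09, 0.104 and 0 FPKM, and the B cell factor Pax5 was listed at 0 in all 6 libraries. The natural killer gene Klrd1 held 0.367, 6.48 and 9.21 FPKM against 0.136, 0 and 0.042 FPKM, and the osteoblast gene Bglap 0.063, 12.8 and 4.83 FPKM against 0, 0.063 and 0 FPKM. Other markers of the same lists ran the other way. The T cell adaptor Lat held 45.0, 27.8 and 25.6 FPKM in ITD and 48.5 to 51.0 FPKM in IRE1_KO_ITD, and the matrix gene Sparc 32.3, 10.1 and 7.55 FPKM against 29.3 to 35.3 FPKM. Of the 5 T and NK cell genes that were tested 2 rose, Tcf7 and Lat, and 0 fell (3 and 1 at an unadjusted p under 0.05 in limma). Both calls were lost without IRE1_KO_ITD replicate 3 (limma adjusted p = 0.0647 for Tcf7 and 0.075 for Lat) and without ITD replicate 2 (0.061 and 0.108) or 3 (0.0771 and 0.116), and that of Lat without IRE1_KO_ITD replicate 1 (0.0825) or 2 (0.0717). Of 26 erythroid genes 13 were above in ITD replicates 2 and 3 and 4 were below; Hba-a1, a globin, held 5.99, 99.7 and 41.4 FPKM against 9.18 to 13.03 FPKM, while the carbonic anhydrase Car2 held 256.4, 114.6 and 86.0 FPKM against 215.3 to 264.2 FPKM. These genes, other than Tcf7 and Lat, lie outside the naming rule and were picked with their values in view. Over whole lists the summed level was 183.8 to 253.5 FPKM in ITD and 170 to 189.6 FPKM in IRE1_KO_ITD for B cell genes, 454.9 to 531.4 FPKM and 468.7 to 519.1 FPKM for T and NK cell genes, 412.4 to 1541 FPKM and 1033 to 1632 FPKM for erythroid genes, 262.2 to 292.4 FPKM and 237.3 to 253.5 FPKM for endothelial and stromal genes, and 693.6 to 4192 FPKM and 227.6 to 288.3 FPKM for MHC class II genes. The part of such cells in the falls of class II, interferon and myeloid genes was not tested. Without ITD replicate 2 the H2-Eb1, Cd74, Zbp1, Isg15, Ctss and Plbd1 calls held, and likewise without ITD replicate 3. Each of these 2 fits kept the other of the 2 libraries, and no fit left out both, so they do not test the part of such cells. The sorting marker Ly6a, which encodes Sca1, held 91.8, 174.2 and 127.5 FPKM in ITD and 62.1, 85.7 and 84.8 FPKM in IRE1_KO_ITD (fall of 0.72, limma adjusted p = 0.0309), a call lost under 10 alternatives, among them without IRE1_KO_ITD replicate 1 (0.114) or 3 (0.0578) and without ITD replicate 2 (0.107) or 3 (0.0777). Kit, the other sorting marker, differed by 0.07 (limma adjusted p = 0.807).

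**Figure D3:**
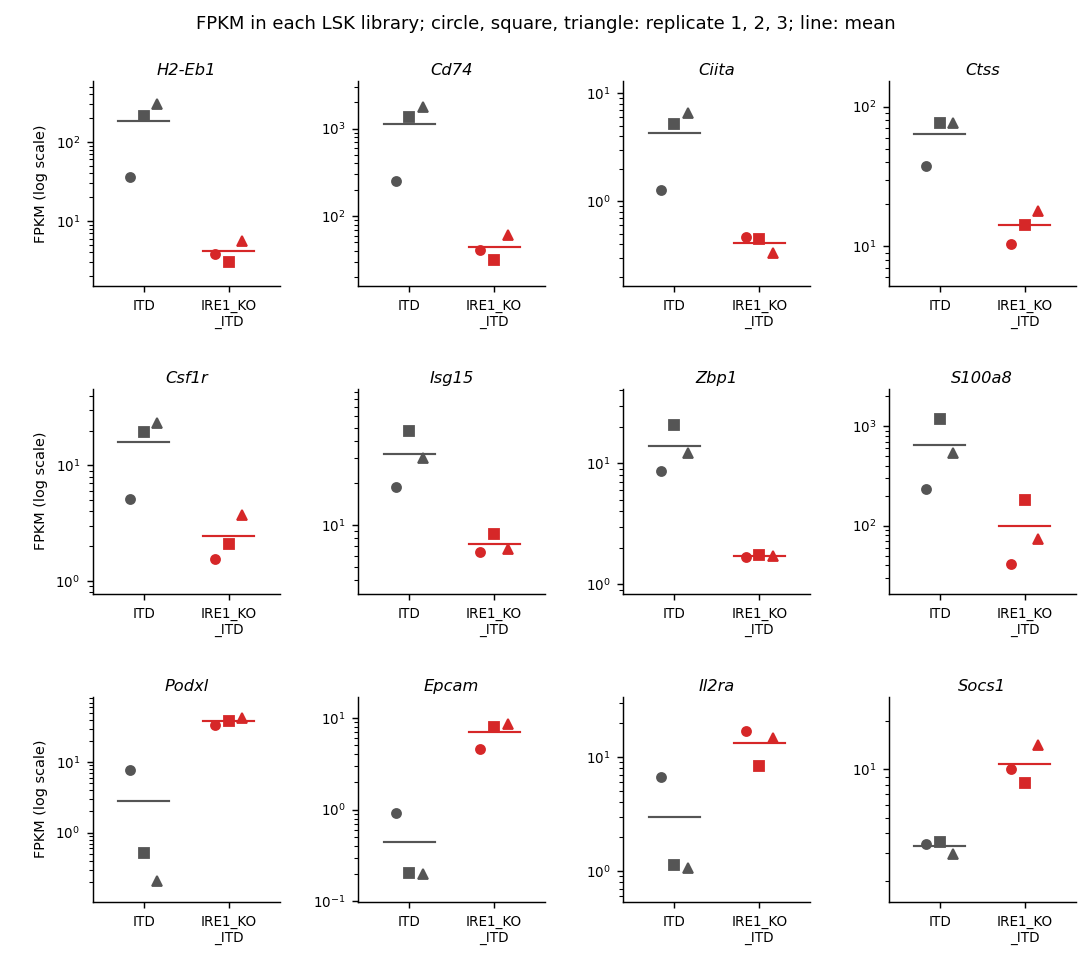
FPKM on a log axis (vertical) of 8 immune genes that fell and 4 genes that rose, in each ITD (grey) and IRE1_KO_ITD (red) LSK library, with circle, square and triangle for replicates 1, 2 and 3 and a line at the mean. In H2-Eb1, Cd74 and Csf1r the circle of ITD replicate 1 lies between the other ITD libraries and the IRE1_KO_ITD libraries, and in Podxl and Il2ra likewise from below.

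By the same rule the largest rise was that of Podxl (chr6:31519488-31563981), which encodes podocalyxin, a sialomucin of stem cells, vessels and platelets. It stood at 7.70, 0.509 and 0.209 FPKM in ITD and at 33.8, 38.6 and 42.6 FPKM in IRE1_KO_ITD. The groups were far apart, with ITD replicate 1 the nearest to the IRE1_KO_ITD libraries, and the rise of 3.96 ± 0.55 (limma adjusted p = 0.00143) held under every alternative. Epcam, an adhesion molecule, went from 0.918, 0.203 and 0.198 FPKM to 4.63, 7.85 and 8.53 FPKM, a rise of 2.48 ± 0.23 (limma adjusted p = 0.0005). Fam20a, a pseudokinase of the secretory pathway, rose by 2.59 (limma adjusted p = 0.00127), the growth factor gene Fgf3 by 2.36 (limma adjusted p = 0.000758) and Gldc, the glycine decarboxylase, by 2.67 (limma adjusted p = 0.00698), each under every alternative. Akr1c12, an aldo-keto reductase, rose by 2.81 from 77.5, 14.1 and 14.1 FPKM to 174.6, 204.6 and 171.5 FPKM (limma adjusted p = 0.00346; 0.0732 against the female library alone). Of the 230 genes with the strongest rises (a call, at least 1 on the log2 scale, no overlap and a mean of at least 5 FPKM), ITD replicate 1 was the highest ITD library for 92, and of the 100 with the strongest falls it was the lowest for 93. Over all 11294 tested genes it was the highest for 5292 and the lowest for 4233.

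Targets of STAT5, the factor that Flt3-ITD is known to activate, included 5 that rose (25.0%) and 2 that fell among 20 tested, beside 14.4% and 7.26% of all tested genes that rose and fell, with a median of 0.40. Without ITD replicate 2 the list gave 3 rises among 20, while 1084 of all 11294 tested genes rose in that fit. Socs1, an inhibitor of cytokine signalling, held 3.42, 3.52 and 2.98 FPKM in ITD and 10.1, 8.23 and 14.3 FPKM in IRE1_KO_ITD, and rose by 1.43 ± 0.21 (limma adjusted p = 0.00183) under every alternative. Il2ra, a subunit of the interleukin 2 receptor, held 6.67, 1.13 and 1.07 FPKM against 17.0, 8.33 and 14.8 FPKM. It rose by 2.10 (limma adjusted p = 0.00646; 0.0566 against the female library alone). The survival kinase gene Pim2 held 170.2, 47.6 and 37.1 FPKM against 225.1, 208 and 260.9 FPKM and rose by 1.76 (limma adjusted p = 0.0144), a call lost without IRE1_KO_ITD replicate 3 (0.0533), without ITD replicate 2 (0.0567), when only the 6 libraries were fitted (0.0591) and against the female library (0.121). Cyclin genes of the list went both ways: Ccnd3 rose by 0.57 (limma adjusted p = 0.00373) and Ccnd2 fell by 0.51 on the log2 scale (limma adjusted p = 0.0134), and neither passed against the female library alone (0.0515 and 0.0842), nor Ccnd2 with sex as a covariate (0.052). Socs2, Cish and Pim1, named after their values were seen, differed by 0.15, 0.77 and 0.79 without passing (limma adjusted p = 0.539, 0.116 and 0.18). Flt3 itself held 55.2, 58.7 and 53.2 FPKM against 67.6, 68.2 and 76.1 FPKM and rose by 0.34 ± 0.09 (limma adjusted p = 0.0194). That call was lost without IRE1_KO_ITD replicate 3 (0.0849), without ITD replicate 3 (0.0725), against the female library (0.0833) and after the GC and length correction (0.171).

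Of 38 tested stem cell genes 12 rose (31.6%) and 2 fell (5.26%), beside 14.4% and 7.26% of all tested genes, with a median of 0.36, and of 11 megakaryocyte and platelet genes 4 rose (36.4%) and 0 fell in limma (6 and 0 at an unadjusted p under 0.05), with a median of 0.48. The cell cycle inhibitor Cdkn1c held 1.10, 0.480 and 0.611 FPKM in ITD and 3.27, 2.78 and 3.73 FPKM in IRE1_KO_ITD (1.31 ± 0.21, limma adjusted p = 0.00268). The lymphotoxin gene Ltb rose by 1.29 (limma adjusted p = 0.00314) and the transcription factor Mycn by 0.80 (limma adjusted p = 0.00469), and these 3 calls held under every alternative. The transcription factors Gata2 and Lmo2 rose by 0.97 and 0.64 (limma adjusted p = 0.00326 and 0.00889), and missed against the female library alone (0.0675 and 0.0732). Itga2b, the platelet integrin CD41, held 9.01, 8.13 and 7.55 FPKM against 22.8, 18.7 and 17.9 FPKM (1.17 ± 0.17, limma adjusted p = 0.00166), and the thrombin receptor F2r rose by 1.73 (limma adjusted p = 0.00552; 0.121 against the female library). The 2 stem cell members that fell were Apoe, named after its values were seen, and the sorting marker Ly6a, given above. Pf4 of the megakaryocyte list, also named after its values were seen, was not called. It held 8.10, 15.5 and 14.5 FPKM in ITD and 5.46, 10.3 and 8.13 FPKM in IRE1_KO_ITD. The rises of the stem cell list numbered 9, 8 and 7 without IRE1_KO_ITD replicates 1, 2 and 3, and 16, 7 and 8 without ITD replicates 1, 2 and 3. Those of the megakaryocyte list numbered 7 without ITD replicate 1, 3 without IRE1_KO_ITD replicate 2 and 2 without any other library. Without IRE1_KO_ITD replicate 3 or ITD replicate 2 the counts were 7 of 38 and 2 of 11. In these 2 fits 946 and 1084 of all 11294 tested genes rose.

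Of 18 lymphoid priming genes 3 rose (16.7%, near the 14.4% of all tested genes) and 6 fell (33.3%, beside 7.26%). Without IRE1_KO_ITD replicate 3 or ITD replicate 3, 1 rose, and the falls were 4 without IRE1_KO_ITD replicate 2 or 3 or ITD replicate 2 or 3. The E protein gene Tcf3 rose by 1.06 (limma adjusted p = 0.00503) under every alternative. The chromatin organiser Satb1 held 2.56, 6.87 and 5.99 FPKM in ITD and 1.77, 1.44 and 1.91 FPKM in IRE1_KO_ITD. It fell by 1.11 on the log2 scale (limma adjusted p = 0.00898) without overlap, and did not pass against the female library alone (0.147).

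Ribosomal protein and respiratory chain genes were lower by small amounts across most of their members. Of 79 tested ribosomal protein genes 63 fell and 0 rose in limma (76 and 0 at an unadjusted p under 0.05), with a median of -0.44, and of 75 oxidative phosphorylation genes 46 fell and 0 rose (58 and 0 unadjusted), with a median of -0.37. Rpl10 held 302.2, 271.4 and 273.7 FPKM in ITD and 162.3, 171.5 and 156.4 FPKM in IRE1_KO_ITD, and fell by 0.78 on the log2 scale (limma adjusted p = 0.00217) under every alternative. Cytochrome c, Cycs, held 70.8 to 75.04 FPKM in ITD against 42.8 to 49.2 FPKM (fall of 0.67, limma adjusted p = 0.00273; 0.0776 against the female library). These 2 counts moved with the processing. After quantile normalization 3 ribosomal protein genes fell, and 6 oxidative phosphorylation genes fell while 2 rose, with medians of -0.11 and -0.12. After the GC and length correction 28 and 25 fell, with medians of -0.25 and -0.17. Against the female library alone 1 and 2 fell, with medians of -0.46 and -0.38. Without IRE1_KO_ITD replicates 1, 2 and 3 the ribosomal protein falls numbered 18, 45 and 11, and without ITD replicates 1, 2 and 3 they numbered 30, 28 and 32. The oxidative phosphorylation falls numbered 19, 32 and 20 and then 24, 30 and 32 in the same order.

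Transcript length moved with the direction of change over all genes. Ordered by length and cut into 4 equal bins, the bin with the shortest transcripts (median 1342 bases) had 6.67% that rose and 17.5% that fell, and in the bin with the longest (median 5959 bases) 20.5% rose and 1.68% fell. Across 11213 genes with a length, which are not independent replicates, the Pearson correlation of the fold change was 0.202 with log2 length, 0.101 with GC content and -0.192 with the log2 mean FPKM. Ribosomal protein transcripts had a median length of 1059 bases, and those of the oxidative phosphorylation list 1141 bases. The part of length in the calls was tested only through the correction given above, under which 1029 genes rose and 928 fell.

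**Figure D4:**
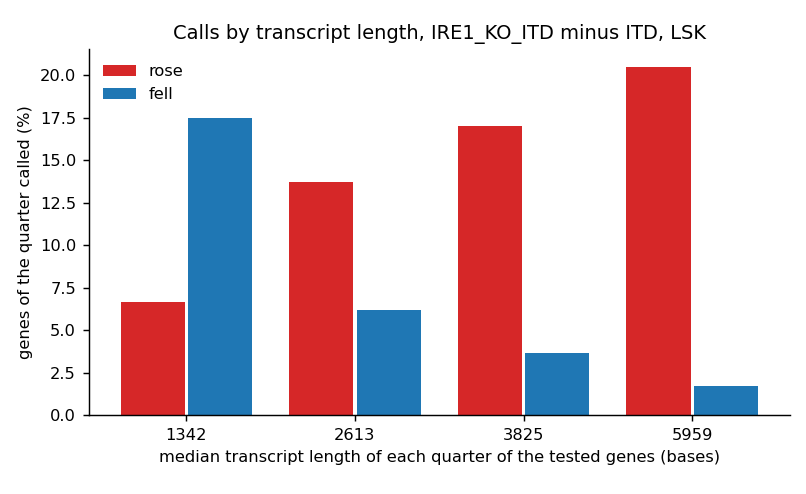
Share of genes called higher (red) or lower (blue) in percent (vertical axis, from 0) in 4 equal bins of the tested genes ordered by transcript length, with each bin's median length in bases on the horizontal axis. The share that rose goes from 6.67% in the shortest bin to 20.5% in the longest, and the share that fell from 17.5% to 1.68%.

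The same Ern1 labels in LSK cells without Flt3-ITD gave another set of falls. There 2414 genes rose (21.4%) and 323 fell (2.86%). Of the 1627 genes that rose with Flt3-ITD, 1092 also rose without it (67.1% of these and 45.2% of the 2414). Of the 820 that fell, 39 also fell (4.76% of these and 12.1% of the 323). Column names of the 3 IRE1_KO LSK libraries carry a tag, 1ng, that the other LSK libraries do not, and Mir6236 stood at 947 to 4961 FPKM in them against 24660 to 32890 FPKM in the other LSK libraries, so the preparation and the genotype cannot be told apart there. Socs1 rose by 1.99 without Flt3-ITD (limma adjusted p = 4.34e-05) and Cdkn1c by 1.61 (limma adjusted p = 0.000176), and the effects with and without Flt3-ITD did not differ detectably (limma adjusted p = 0.274 and 0.561).

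Of the MHC class II and interferon lists without Flt3-ITD, 0 and 4 genes rose and 0 and 1 fell. H2-Eb1 stood at 9.50 ± 4.11 FPKM (SD, n = 3) in WT, near the 3.02 to 5.62 FPKM of IRE1_KO_ITD, and at 13.2 FPKM in IRE1_KO. The difference between its effects with and without Flt3-ITD was -5.21 ± 0.87 (limma adjusted p = 0.00808). The difference passed for 811 of all tested genes (7.18%), of which 172 were more positive with Flt3-ITD (1.52%) and 639 more negative (5.66%), and for 6 of 10 class II and 18 of 52 interferon genes, all more negative with Flt3-ITD. The median difference over all genes was -0.14, and 0.02 after quantile normalization, with 232 more positive and 327 more negative. WT LSK replicate 1 read as female and replicates 2 and 3 as male. IRE1_KO LSK replicate 1 read as male and replicates 2 and 3 as female. Sex was thus unbalanced in opposite directions in the effects with and without Flt3-ITD. With sex as a covariate 20 and 65 passed, and H2-Eb1 did not (limma adjusted p = 0.0696). Without ITD replicate 1 the counts were 450 and 1021, and without IRE1_KO replicate 1 they were 113 and 490. They fell to between 77 and 109 and between 288 and 393 without IRE1_KO_ITD replicate 1 or 2, ITD replicate 2 or 3, IRE1_KO replicate 2, or WT replicate 2 or 3. Zbp1 and Plbd1 differed by -2.46 and -4.92 (limma adjusted p = 0.00553 and 0.00607), and Podxl by 3.82 (limma adjusted p = 0.0173), its level being 0.166 FPKM in WT and 0.285 FPKM in IRE1_KO. With sex as a covariate the differences of Plbd1 and Podxl missed (0.0534 and 0.0942), as did Podxl with a pseudocount of 0.1 (0.0622).

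In GMP with Flt3-ITD 7 of the 10 class II genes fell and 0 rose, and H2-Eb1 went from 116.3 to 10.2 FPKM, a fall of 3.61 on the log2 scale (limma adjusted p = 0.00301). Of the interferon list 11 fell and 1 rose, with Isg15 lower by 1.78 (limma adjusted p = 0.022). Of all 820 genes that fell in LSK, 72 also fell in GMP (8.78% of these and 48.6% of the 148 in GMP). Of those that rose, 77 also rose (4.73%, and 26.3% of the 293). Ctss fell in LSK and differed between the cell types (limma adjusted p = 0.0268), with 102.3 and 67.8 FPKM in GMP (limma adjusted p = 0.151). The difference missed without any of 5 single libraries (limma adjusted p of 0.0541 to 0.0775). It also missed with no filter on low values (0.0538) and after the GC and length correction (0.076). Csf1r likewise differed (limma adjusted p = 0.0413), with 64.6 and 51.2 FPKM in GMP (limma adjusted p = 0.657). Its difference missed without any of 9 single libraries (limma adjusted p of 0.0541 to 0.0999) and with no filter on low values (0.0865).

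**Figure D5:**
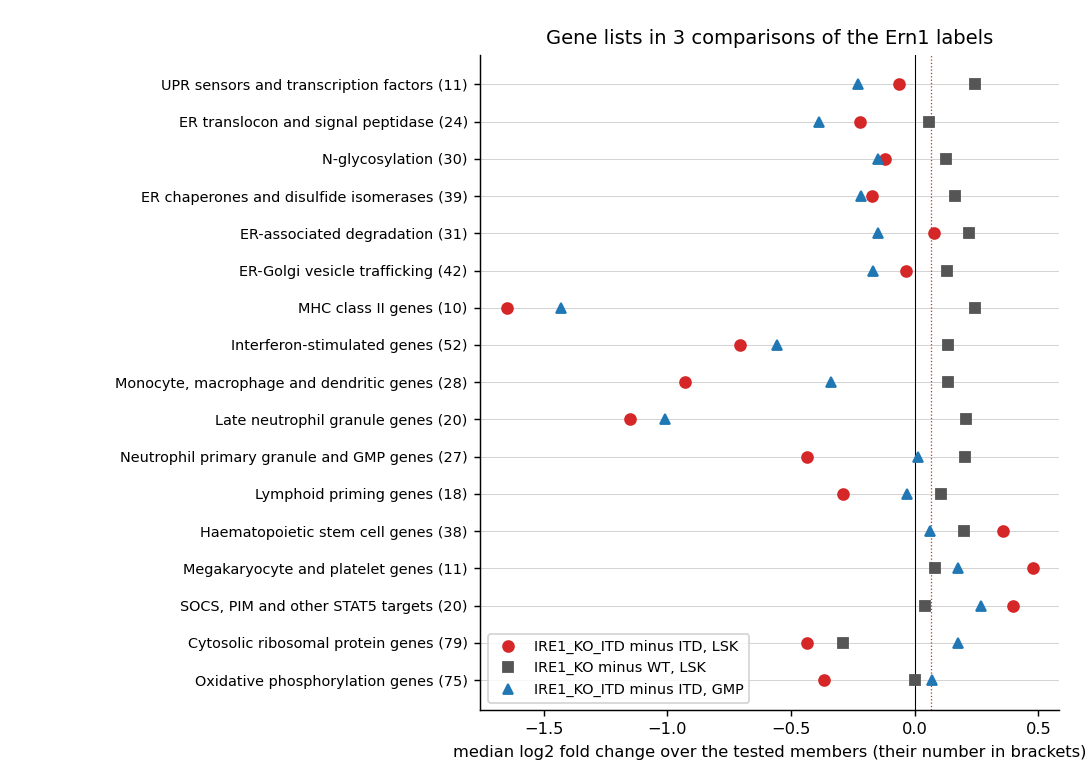
Median log2 fold change (horizontal axis) over the tested members of 17 gene lists (vertical axis, number of members in brackets) for the Ern1 labels in LSK with Flt3-ITD (red circles), LSK without it (grey squares) and GMP with Flt3-ITD (blue triangles), where the dotted line is the median of all tested genes in the first comparison. The class II list lies at -1.65 in LSK with Flt3-ITD, and the translocon list at -0.22 there and -0.39 in GMP.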

How the data were processed

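FPKM values per gene were deposited by the authors as 1 file per library, made with STAR and Cufflinks on mm10 per the submitters' processing notes; their versions were not stated. The labels' protocols name a low-input full-length cDNA kit with a transposase-based library, while the design text names a stranded kit, and this was not settled. FPKM is relative to length and library total, so a change in a few abundant genes shifts the others. From these values log2(FPKM + 1) was computed (pseudocount 1), and genes with at least 1 FPKM in 3 of the 6 libraries compared were tested with limma 3.58.1 (R 4.3.3; empirical Bayes with trend) over the 12 LSK libraries; differences between cell types used all 24. Genes were named by rule: 12 set genes, the 12 highest and 12 lowest fold changes among calls of at least 1 with no overlap and a mean of at least 5 FPKM, up to 6 called members per list (10 for ER lists), and the 5 smallest p-values of each difference test. The members and lists were chosen with earlier results of these data known. The 39 lists held 1202 entries, of which 1194 matched. The scripts were tested on simulated data. Same-numbered libraries of the 2 groups correlated at 0.109, 0.025 and -0.00956 in their deviations from group means, so no pairing was assumed. Alternatives covered the pseudocount, filter, scaling, replicate block, sex, samples fitted, each library left out and, added after seeing the data, GC and length.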

Additional observations from a re-analysis of the deposited data

Results flagged for a closer look

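These genes were picked out because the effect of the Ern1 labels differed between 2 settings by a test of the difference itself (limma with Benjamini-Hochberg adjustment). Between LSK with and without Flt3-ITD, the effect was lower with Flt3-ITD for Aes by a difference of -1.46, for Agpat5 of -1.35, for Btbd1 of -1.94 and for Suds3 of -1.73. In these 4 genes the largest move was in the IRE1_KO libraries without Flt3-ITD, which carry the 1ng tag; Btbd1, for example, stood at 5.04 FPKM in WT and 29.2 FPKM in IRE1_KO. Lars2, a mitochondrial leucyl-tRNA synthetase, differed by 3.47, with 1587 FPKM in WT and 117 FPKM in IRE1_KO. That low level was in the same 1ng-tagged libraries, where the preparation and the genotype cannot be told apart. Epcam and Cd248, an endosialin gene, had a more positive effect with Flt3-ITD, by 1.87 and 0.893.

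Between LSK and GMP, both with Flt3-ITD, the effect was higher in LSK for Epcam by 2.16, Cd248 by 0.994, Enho by 1.85, Mgat2, an N-glycan branching enzyme, by 1.64, Dnajc3 by 1.15 and Edem1 by 1.12. Enho stood at 0.203 and 0.104 FPKM in GMP, and Cd248 at 0.0044 and 0.0335 FPKM. Mgat2 went from 74.3 to 40.0 FPKM in GMP.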

How the results depend on the processing

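Precision is limited by 3 libraries per group, 1 female IRE1_KO_ITD library and unknown read totals. The main comparison gave 1627 rises and 820 falls, 946 to 1615 and 391 to 714 when single libraries were left out, 648 and 78 against the female library alone, and 1029 rises after the GC and length correction. The difference by Flt3 genotype gave 172 more positive and 639 more negative genes, 77 to 450 and 288 to 1021 with single libraries left out, and 20 and 65 with sex as a covariate; the more negative numbered 416 with no filter, 327 after quantile normalization, 308 with the size factor and 381 after the GC and length correction. The LSK minus GMP difference gave 483 and 367, 48 to 975 and 22 to 676 with single libraries left out, 213 and 124 with no filter, and 177 lower after the GC and length correction. Gpx1 turned from -0.44 to 0.017 after quantile normalization (limma adjusted p = 0.928). The replicate block gave 1601 and 833 in the main comparison, 145 and 522 by Flt3 genotype and 513 and 473 for LSK minus GMP. Of the 179 named genes called, 136 kept the call after quantile normalization, 144 after the GC and length correction, 143 with sex as a covariate, 60 against the female library and 123 to 149 with single libraries left out. The causes were not tested.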

Other observations

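Of 36 tested targets of ATF4 and the integrated stress response 5 rose (13.9%, near the 14.4% of all tested genes) and 1 fell (2.78%). The falls numbered 4 after quantile normalization and after the GC and length correction, and the rises 3 without IRE1_KO_ITD replicate 3. Gars, the glycyl-tRNA synthetase, held 34.5, 39.1 and 44.2 FPKM in ITD and 64.9, 67.9 and 79.6 FPKM in IRE1_KO_ITD, and rose by 0.84 ± 0.13 (limma adjusted p = 0.00227) under every alternative run. Of 9 tested mRNAs reported as substrates of IRE1-dependent decay 2 rose and 1 fell. Hgsnat, a lysosomal acetyltransferase, held 6.04, 4.25 and 5.81 FPKM against 11.2, 12.7 and 18.8 FPKM (1.24 ± 0.22, limma adjusted p = 0.00324), and Galnt10, a glycosyltransferase, rose by 0.90 (limma adjusted p = 0.00504), both under every alternative. Bloc1s1, the most often cited substrate, fell by 0.29 on the log2 scale (limma adjusted p = 0.0256), a call lost under 8 alternatives, among them without IRE1_KO_ITD replicate 1 (0.0907) or 3 (0.0842) and without ITD replicate 2 (0.0671) or 3 (0.0877).

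Among 26 antioxidant genes of the NRF2 pathway 3 rose and 3 fell (11.5% each). Gclm, a subunit of the enzyme that starts glutathione synthesis, held 5.10, 2.94 and 3.63 FPKM in ITD and 9.84, 14.6 and 17.9 FPKM in IRE1_KO_ITD (1.61 ± 0.22, limma adjusted p = 0.00143). Of 21 glycolysis genes 4 rose (19.0%) and 1 fell, but 1 rose without IRE1_KO_ITD replicate 1 or 2 or ITD replicate 2 or 3, and 2 without IRE1_KO_ITD replicate 3. Pdk1, a kinase that inhibits pyruvate dehydrogenase, rose by 0.68 (limma adjusted p = 0.00535). Cell cycle lists held few calls: 1 of 45 S phase genes rose and 1 fell, and 2 of 36 G2 and mitosis genes rose. Of 26 apoptosis regulators 4 fell, 3 of them (Bcl2a1a, Bcl2a1b and Bcl2a1d) near-identical copies whose reads can be split between them. Of the 25 genes of MAPK output 0 passed in limma (2 higher and 0 lower at an unadjusted p under 0.05), with a median of 0.24 that was -0.15 without ITD replicate 1. Replicate 1 of both groups stood apart on this list, with summed levels of 1370 FPKM in ITD and 1684 FPKM in IRE1_KO_ITD against 4210 to 5617 FPKM in the other 4 libraries. On the heat shock and cell handling list the same 2 libraries summed to 3791 and 3892 FPKM against 6470 to 7884 FPKM.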
